A study of Homo sapiens with 9 samples.

Results

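The genes described here are 10 transcription factors and rapid-response genes of the AP-1 and immediate-early group: FOS, FOSB, FOSL1, FOSL2, JUN, JUNB, JUND, EGR1, IER2 and KLF6. They were taken by gene symbol and all 10 were found among the 51796 gene identifiers of the count table. RNA was sequenced from A549 cells (established from a human adenocarcinoma of the lung, epithelial) after 7 days in 1 of 3 conditions with 3 libraries each. The control group received DMSO, the solvent. The second group received 1 µM GSK591, which blocks PRMT5, the arginine methyltransferase behind most symmetric dimethylation. The third received 1 µM MS023, which blocks the type I methyltransferases and so asymmetric dimethylation. Seeding also differed, at 0.2 in the controls against 0.4 in both treated groups in the same unit of cells, so seeding density and treatment cannot be told apart in comparisons with DMSO. All groups are cultures of 1 cell line. The labels do not say whether the 3 replicates were separate cultures, and the p-values here measure no more than the spread among the sequenced libraries, which may be technical.

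AP-1 is a dimer of basic leucine zipper proteins, in which a JUN family protein pairs with another JUN protein or with a FOS family protein. FOS proteins do not pair with each other. Immediate-early genes such as FOS, EGR1 and IER2 are switched on within minutes of a growth factor or stress signal, through MAP kinases and the serum response factor SRF, without new protein synthesis, and many of their mRNAs are short-lived. FOSL1 and FOSL2 (also called FRA1 and FRA2) are induced later and persist longer, and FOSL1 is known for its part in invasive growth of epithelial tumour cells, lung carcinoma among them.

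The promoters of 4 members that changed in different ways are shown, since the group is known for shared control elements. The sequences are the 250 bases before the RefSeq start in the GRCh38.p14 promoter table, in which 9 of the 10 members had an entry, FOSL1 being the exception. FOS and EGR1 were lower with both inhibitors, JUN rose with GSK591, and JUND moved in opposite directions with GSK591 and MS023. Capitals mark CArG boxes, the DNA element of SRF, the sequence TGACATCA, the full cyclic AMP response element TGACGTCA, and its shorter form TGACGT (on either strand, so TGACGTCA holds TGACGT on both strands).
FOS promoter, GRCh38.p14, chr14:75278578-75278827, plus strand: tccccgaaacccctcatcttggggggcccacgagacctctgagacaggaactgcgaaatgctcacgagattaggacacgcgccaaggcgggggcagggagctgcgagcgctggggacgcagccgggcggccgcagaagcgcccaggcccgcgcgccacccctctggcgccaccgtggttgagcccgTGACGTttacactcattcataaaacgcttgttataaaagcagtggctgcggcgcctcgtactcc
EGR1 promoter, GRCh38.p14, chr5:138465229-138465478, plus strand: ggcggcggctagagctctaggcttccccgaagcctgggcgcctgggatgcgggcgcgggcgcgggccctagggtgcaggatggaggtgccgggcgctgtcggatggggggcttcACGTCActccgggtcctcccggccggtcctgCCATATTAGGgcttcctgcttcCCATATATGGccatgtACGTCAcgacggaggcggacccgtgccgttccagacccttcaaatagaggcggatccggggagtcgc
JUN promoter, GRCh38.p14, chr1:58784048-58784297, minus strand: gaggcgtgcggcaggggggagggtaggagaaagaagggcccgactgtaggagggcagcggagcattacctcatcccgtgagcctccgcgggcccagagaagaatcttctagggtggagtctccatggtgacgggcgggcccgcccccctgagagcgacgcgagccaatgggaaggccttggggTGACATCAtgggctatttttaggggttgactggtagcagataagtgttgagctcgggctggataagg
JUND promoter, GRCh38.p14, chr19:18281623-18281872, minus strand: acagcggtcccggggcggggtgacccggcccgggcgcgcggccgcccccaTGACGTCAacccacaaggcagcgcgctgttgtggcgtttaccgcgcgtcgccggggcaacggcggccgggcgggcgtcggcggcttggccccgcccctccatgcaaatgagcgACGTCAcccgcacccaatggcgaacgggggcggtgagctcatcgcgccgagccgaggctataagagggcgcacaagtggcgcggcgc

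Over all 35116 promoters of this length, 1.16% held a CArG box, and EGR1 alone of the 9 members held any, with 2 boxes whose first bases lie at -105 and -83 (-1 is the base before the start). In all, 11 promoters held 2 or more. TGACGT, present in 7.1% of promoters, was found in 5 members: FOS (-64), FOSB (-60), FOSL2 (-66), EGR1 and JUND. JUND alone held TGACGTCA (1.65% of promoters), at -200. TGACATCA, in 2.37% of promoters, was found in JUN at -67 and in KLF6 at -172. TGANTCA (N is any base), a looser form of the classical AP-1 element, was in 6.57% of promoters and in none of the 9. These matches describe letters in the window only. Bases further upstream were not searched, so a member without a CArG box here may hold one there.

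The transcripts differ in structure. In the principal GENCODE transcript, JUN, JUNB, JUND and IER2 are single-exon genes, a form held by 6% of 19666 protein-coding genes, while EGR1 has 2 exons and the other five have 4. AU-rich elements, marks of unstable mRNA, were counted in 3′ UTRs. The nonamer TTATTTATT was present in FOS and FOSL2 and in 7.51% of 18935 genes with a 3′ UTR. The single copy of each is shown with its flanks, the nonamer in capitals, because no other member held one. FOS fell with both inhibitors and FOSL2 rose with GSK591 and fell with MS023, while JUNB, EGR1 and KLF6, with 0 copies, also fell with MS023.
FOS 3′ UTR site: tgtttttaatTTATTTATTaagatggattc
FOSL2 3′ UTR site: atttattttaTTATTTATTttaaatgttta
The pentamer ATTTA occurred 5 times in the 806 bases of the FOS 3′ UTR (6.2 per kb), against a median of 1.57 per kb over 17667 genes with at least 100 bases of 3′ UTR. IER2 had none.

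The libraries held between 31398075 and 51244525 counts. GSK591 replicate 3 carried 928 CPM of mitochondrial rRNA (CPM scales a gene's counts to the size of its library) against 0.401 to 20.1 in the others, and DMSO replicate 1 the second most. Epithelial markers were present, with KRT8 between 2560 and 4300 CPM, while EPCAM was low (6.43 to 22.6 CPM). The leukocyte marker PTPRC had 6 counts and the fibroblast marker DCN 1 count over all 9 libraries. The summed levels of 8 fibroblast and endothelial markers, mostly COL1A1, ran from 12.5 to 14.6 CPM in DMSO, 10.4 to 12.3 in GSK591 and 26 to 29.6 in MS023, and those of 7 leukocyte markers, mostly CD14 and ITGAM, from 10.7 to 11.9, 15.1 to 15.8 and 8.15 to 9.34 CPM. Their part in the results was not tested.

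**Figure D1:**
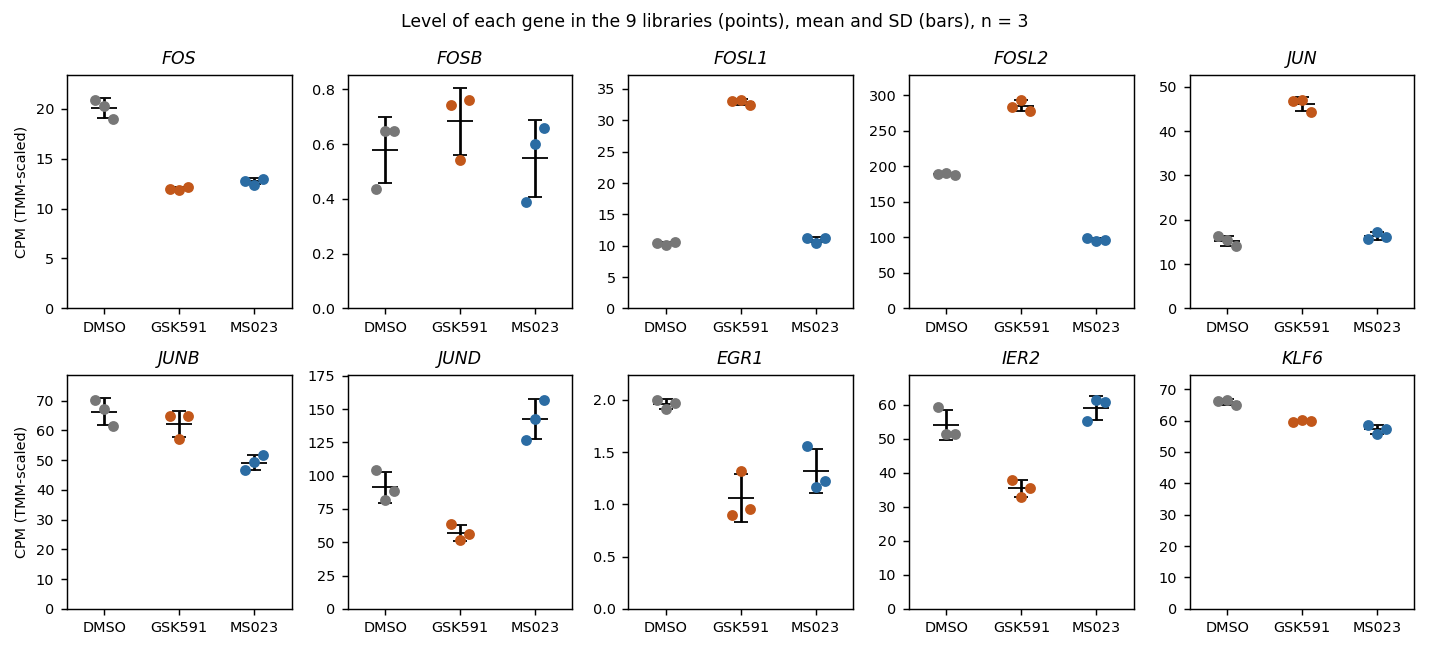
Level of each member in CPM after TMM scaling (y axis, from 0, own scale per panel) in the 3 libraries of each group (x axis), with points for libraries and bars for mean and SD. FOSL1 and JUN stand apart in GSK591, FOSL2 and JUND separate all 3 groups, and FOS is lower in all 6 treated libraries.

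All 10 members passed the filter on low counts, and an edgeR F-test over the 3 groups called 9 of them at an adjusted p of 0.05, all but FOSB, beside 78.1% of all genes. In GSK591 against DMSO 8 of 10 were called, 3 higher and 5 lower, beside 62.6% of all genes (30.1% higher, 32.4% lower), and in 8 members the groups did not overlap, beside 65.6% of all genes. With MS023, 6 were called, 1 higher and 5 lower, beside 51.0% of all genes (25.1% higher, 25.9% lower), and 6 members did not overlap (57.5% of all genes). The direct comparison of the inhibitors called 6, 2 higher and 4 lower in MS023, beside 65.4% (33.6% and 31.7%), and 8 did not overlap (70.5%). These shares lie near the background, so what follows is about single genes. Changes of at least 2-fold were seen in 2 members with GSK591 (11.8% of all genes), in 0 with MS023 (8.19%), and in 4 between the inhibitors (15.7%). The median size of the log2 change was 0.64 in the members and 0.33 in all genes with GSK591, 0.32 and 0.24 with MS023, and 0.54 and 0.36 between the inhibitors.

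Among FOS family genes, FOSL1 (ENSG00000175592, hg19 chromosome 11, 65659520 to 65668044) rose with GSK591 and not detectably with MS023. Its level was 10.4, 10.1 and 10.6 CPM in DMSO, 33, 33.3 and 32.4 in GSK591, and 11.2, 10.5 and 11.2 in MS023. The GSK591 libraries lay far above all the others, whose ranges overlapped. The fitted change was 3.17-fold with GSK591 (log2 1.66 ± 0.05, standard error, edgeR adjusted p = 2.86e-12). With MS023 the log2 difference was 0.08 ± 0.05 (adjusted p = 0.23), and the inhibitors differed by -1.59 ± 0.05 (MS023 minus GSK591, adjusted p = 1.26e-12). In cultures, a change in the share of expressing cells and a change in RNA per cell cannot be told apart.

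FOSL2 (ENSG00000075426, hg19 chromosome 2, 28615315 to 28640179) moved in opposite directions with the inhibitors. It stood at 189, 191 and 188 CPM in DMSO, 284, 294 and 278 in GSK591, and 99.5, 95.4 and 96.1 in MS023, with no overlap between any groups. It rose 1.51-fold with GSK591 (log2 0.59 ± 0.04, adjusted p = 2.69e-09) and fell 1.95-fold with MS023 (log2 -0.96 ± 0.04, adjusted p = 3.67e-11). The difference between inhibitors was log2 -1.55 ± 0.04 (adjusted p = 6.21e-14). A small overlapping gene, AC104695.3, had 156 counts over all libraries against 70739 for FOSL2.

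FOS (ENSG00000170345, hg19 chromosome 14, 75745477 to 75748933), the founding immediate-early member, fell with both inhibitors. Its libraries held 20.9, 20.3 and 19 CPM in DMSO, 12, 11.9 and 12.2 in GSK591, and 12.8, 12.4 and 13 in MS023. Every treated library lay below every control library. The fall was 1.66-fold with GSK591 (log2 -0.73 ± 0.06, adjusted p = 2.94e-08) and 1.57-fold with MS023 (log2 -0.66 ± 0.05, adjusted p = 1.74e-07). These comparisons share the DMSO libraries. Between the inhibitors the log2 difference was 0.08 ± 0.06 (adjusted p = 0.244) in counts, although these libraries did not overlap. In the authors' FPKM, fragments scaled to gene length and depth, the difference was called, at 0.22 with a pseudocount of 0.1 (limma adjusted p = 0.0141). In that setting the median log2 difference of all genes was itself 0.11, against 0.0 in counts.

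FOSB (ENSG00000125740, hg19 chromosome 19, 45971253 to 45978437) was scarcely measured, at 0.438, 0.65 and 0.648 CPM in DMSO, 0.745, 0.541 and 0.763 in GSK591, and 0.39, 0.599 and 0.658 in MS023. All groups overlapped and no comparison passed (adjusted p from 0.3 to 0.734). Its 227 counts over 9 libraries are uncertain, since it overlaps ERCC1, which had 21236 counts, and the strand setting of the counting is not given in the sources used here.

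In the JUN family, JUN (ENSG00000177606, hg19 chromosome 1, 59246465 to 59249785), the partner with the strongest transcriptional activity in most settings, followed the same course as FOSL1. It had 16.3, 15.5 and 14.1 CPM in DMSO, 46.8, 47.1 and 44.2 in GSK591, and 15.6, 17.3 and 16.1 in MS023. GSK591 stood clear of the other groups, which overlapped. The rise with GSK591 was 3.01-fold (log2 1.59 ± 0.06, adjusted p = 1.54e-11). With MS023 the log2 difference was 0.1 ± 0.06 (adjusted p = 0.195), which passed without DMSO replicate 1 (adjusted p = 0.0462). The inhibitors differed by log2 -1.5 ± 0.06 (adjusted p = 9.96e-12).

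JUND (ENSG00000130522, hg19 chromosome 19, 18390563 to 18392432), the member known for steady expression and for slowing growth in fibroblasts, took the opposite course to FOSL2. Its libraries stood at 104, 81.5 and 88.3 CPM in DMSO, 63.6, 51.9 and 56.1 in GSK591, and 127, 143 and 157 in MS023. The groups did not overlap, although the spread within groups was wide, with an SD of 11.3 CPM in DMSO and 15.3 CPM in MS023. JUND fell 1.59-fold with GSK591 (log2 -0.67 ± 0.09, adjusted p = 1.37e-05) and rose 1.56-fold with MS023 (log2 0.64 ± 0.09, adjusted p = 3.10e-05). The difference between inhibitors was 2.49-fold (log2 1.32 ± 0.09, adjusted p = 8.35e-09).

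JUNB (ENSG00000171223, hg19 chromosome 19, 12902310 to 12904124), a JUN protein that can restrain JUN, fell with MS023. It had 70.3, 67.2 and 61.4 CPM in DMSO, 64.8, 57.2 and 64.9 in GSK591, and 46.6, 49.3 and 51.6 in MS023. The MS023 libraries were all below the rest, and GSK591 overlapped DMSO. The fall with MS023 was 1.35-fold (log2 -0.43 ± 0.06, adjusted p = 2.73e-05). With GSK591 the log2 difference was -0.09 ± 0.06 (adjusted p = 0.2), which passed without DMSO replicate 3 (adjusted p = 0.0497). JUNB overlaps HOOK2, with 3154 counts against 22167.

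**Figure D2:**
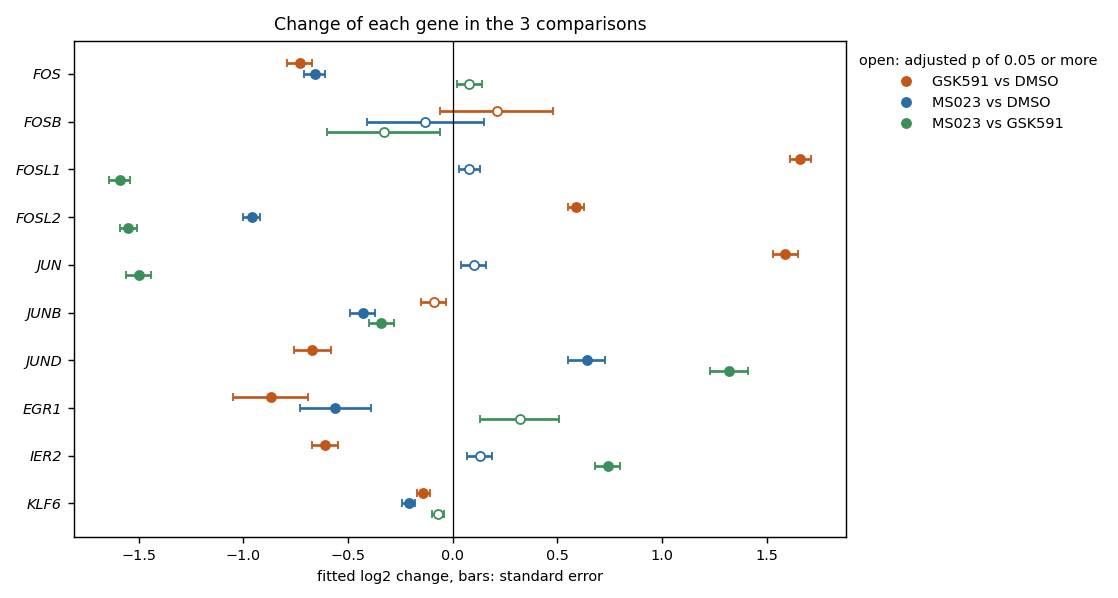
Fitted log2 change (x axis) with its standard error for each member (y axis) in GSK591 against DMSO, MS023 against DMSO, and MS023 against GSK591. Filled points passed the test at an adjusted p of 0.05. FOSL1 (1.66) and JUN (1.59) lie at the right with GSK591 only, while FOSL2 and JUND lie on opposite sides of 0 for the inhibitors.

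The makeup of each family was compared per gene length, in FPKM, as a description without a test. Summed over its 4 genes, the FOS family stood at 43.1 ± 1.57 FPKM (SD, n = 3) in DMSO, 67.2 ± 1.67 in GSK591 and 26.7 ± 1.06 in MS023. FOSL2 held the largest part in all 9 libraries, at 65.4 ± 1.33% in DMSO, 65.3 ± 0.597% in GSK591 and 52.3 ± 1.79% in MS023. The FOS share ran from 20.1 to 20.9% in DMSO, 8.18 to 8.29% in GSK591 and 22.4 to 25.1% in MS023. That of FOSL1 ran from 12.7 to 14.1% in DMSO, 25.4 to 26.4% in GSK591 and 21 to 23.6% in MS023. The FOSL1 share was larger in MS023 than in DMSO, while its own level was 6.06 ± 0.266 against 5.83 ± 0.182 FPKM.

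The JUN family summed to 102 ± 5.09 FPKM in DMSO, 85.1 ± 7.44 in GSK591 and 135 ± 7.51 in MS023. JUND was the largest part in all libraries, with 63.2 ± 1.89% in DMSO, 49.6 ± 2.45% in GSK591 and 78.3 ± 0.818% in MS023. JUN made up 3.9 ± 0.185%, 14 ± 1.43% and 3.19 ± 0.27% in the same order, and JUNB 32.9 ± 1.7%, 36.4 ± 1.59% and 18.5 ± 0.548%. In GSK591 the FOS family sum was thus above and the JUN family sum below that of DMSO, and in MS023 the reverse, with no overlap between groups in either family.

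**Figure D3:**
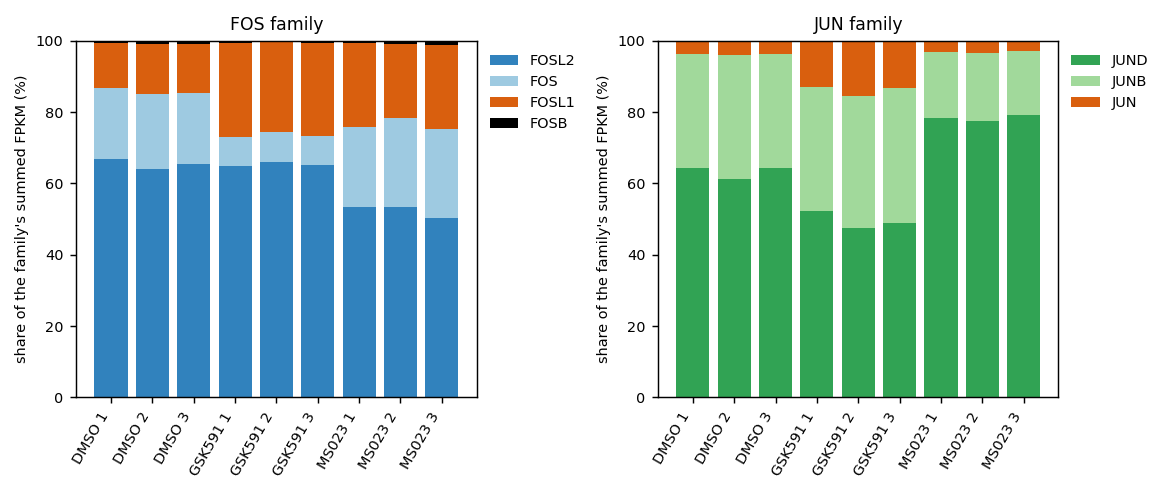
Share of each gene (y axis, percent) in the summed FPKM of the FOS family (left) and the JUN family (right) in each of the 9 libraries (x axis). The FOSL1 and JUN parts are largest in the GSK591 libraries, and the JUND part is largest in the MS023 libraries, at 77.5 to 79.2%.

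EGR1 (ENSG00000120738, hg19 chromosome 5, 137801179 to 137805004), a zinc finger factor of growth factor responses, was low and fell with both inhibitors. Its libraries had 2, 1.91 and 1.97 CPM in DMSO, 0.901, 1.32 and 0.959 in GSK591, and 1.56, 1.17 and 1.22 in MS023, from 243, 129 and 177 counts per group. All treated libraries were below all controls. The log2 change was -0.87 ± 0.18 with GSK591 (adjusted p = 0.000733) and -0.56 ± 0.17 with MS023 (adjusted p = 0.0152). The latter call ended without MS023 replicate 2 (adjusted p = 0.0608) or 3 (0.0565). The inhibitors did not differ detectably (log2 0.32 ± 0.19, adjusted p = 0.158), and without GSK591 replicate 2 they did (adjusted p = 0.0449).

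IER2 (ENSG00000160888, hg19 chromosome 19, 13261229 to 13265722), a nuclear protein of the early growth response, fell with GSK591. It stood at 59.3, 51.6 and 51.4 CPM in DMSO, 37.9, 32.8 and 35.6 in GSK591, and 55.2, 61.5 and 60.8 in MS023. The GSK591 libraries were apart and the other groups overlapped. The fall was 1.53-fold (log2 -0.61 ± 0.06, adjusted p = 1.06e-06), and the inhibitors differed by log2 0.74 ± 0.06 (adjusted p = 9.97e-08). With MS023 the log2 difference from DMSO was 0.13 ± 0.06 (adjusted p = 0.0974). Leaving out DMSO replicate 1 brought this to an adjusted p of 0.00749, and leaving out MS023 replicate 1 to 0.0366. It was also called on total-count scaling (0.0305) and when genes of low count were kept (0.0074).

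KLF6 (ENSG00000067082, hg19 chromosome 10, 3818188 to 3827473), a zinc finger factor described as a tumour suppressor, was slightly lower with both inhibitors. Its level was 66.4, 66.6 and 64.9 CPM in DMSO, 59.7, 60.2 and 59.9 in GSK591, and 58.6, 55.6 and 57.3 in MS023. The log2 change was -0.14 ± 0.03 with GSK591 (adjusted p = 0.00293) and -0.21 ± 0.03 with MS023 (adjusted p = 0.00017). The GSK591 call ended when libraries were scaled by total counts (adjusted p = 0.0825) and in FPKM (up to 0.211). Between inhibitors the log2 difference was -0.07 ± 0.03 (adjusted p = 0.0966). It passed at a filter of 1 CPM (0.00991), scaled by total counts (0.0432) and in FPKM with no filter (0.0387).

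The order of the members by level, per gene length, also differed between groups. In DMSO it was JUND (64.7 FPKM), JUNB (33.6), FOSL2 (28.2), IER2 (24), KLF6 (13.1), FOS (8.77), FOSL1 (5.83), JUN (3.98), EGR1 (0.518) and FOSB (0.326), and no neighbours overlapped. In GSK591, FOSL2 came first (43.9 FPKM, 42.7 to 45.5) and was not separable from JUND (42.3, 37.6 to 48.8), before JUNB (30.9). FOSL1 (17.4) overlapped IER2 (16), KLF6 (12.5) overlapped JUN (11.8), FOS followed at 5.52, and FOSB (0.338) overlapped EGR1 (0.267). In MS023, JUND led at 106 FPKM, IER2 (27.6) overlapped JUNB (25), then came FOSL2 (14) and KLF6 (11.6), FOS (6.45) overlapped FOSL1 (6.06), JUN stood at 4.3, and EGR1 (0.351) overlapped FOSB (0.241).

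Genes with the most similar course were found for the 4 members with a called change of at least 2-fold, by the root mean square difference of log2 CPM, centred per gene, over the 9 libraries among 13818 genes. Those nearest to FOSL1 were THY1 (0.081) and EDA2R (0.0842). THY1 had 4.87 ± 0.101 CPM in DMSO, 15 ± 0.221 in GSK591 and 4.66 ± 0.213 in MS023. Nearest to FOSL2 were RSPO3 (0.0648) and TIMP2 (0.0653), the latter at 178 ± 8.9, 287 ± 4.27 and 97.6 ± 1.58 CPM. For JUN they were FLNC (0.076) and CYFIP2 (0.0766), and for JUND LTBP4 (0.0872) and FRAT2 (0.101). The measure takes in the groups, so it describes genes of like group means in the same libraries.

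Other basic leucine zipper genes that can pair with or resemble AP-1 proteins were followed as a list of 18, of which 17 were tested and BATF had 1 count. With GSK591, 6 rose and 9 fell (median log2 -0.12, all genes 0.01), beside 30.1% and 32.4% of all genes. With MS023, 4 rose and 5 fell (median 0.03, all genes 0.0), beside 25.1% and 25.9% of all genes. MAF, a large MAF factor, had 137 counts over the DMSO libraries, 454 in GSK591 and 19 in MS023. It rose with GSK591 (log2 1.77 ± 0.15, adjusted p = 1.08e-07), fell with MS023 (-2.91 ± 0.26, adjusted p = 3.66e-07) and differed between the inhibitors by -4.68 ± 0.21 (adjusted p = 8.02e-11). BATF2 (1.31 ± 0.16) and the stress factor ATF3 (0.92 ± 0.12) also rose with GSK591, and MAFK (-0.72 ± 0.05), CREM and CREB1 fell. BATF2 was low, with 125 counts over the DMSO libraries and 301 in GSK591. With MS023, BATF3 (0.45 ± 0.1) and MAFG (0.29 ± 0.03) rose, and MAFK (-0.41 ± 0.05), CREM (-0.31 ± 0.05) and ATF4 (-0.16 ± 0.04) fell. The changes of MAFG and ATF4 were not particular to MS023. MAFG stood at 92.4 CPM in DMSO, 129 in GSK591 and 113 in MS023. ATF4 fell by more with GSK591 (-0.43 ± 0.04). The MS023 calls of BATF3 (adjusted p = 0.109) and ATF4 (0.0697) ended in FPKM with no filter.

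Of 37 other immediate-early genes 34 were tested, and EGR2, EGR3 and EGR4 were below the filter, with 14, 4 and 0 counts in DMSO. With GSK591, 11 rose and 18 fell (median log2 -0.22), beside 30.1% and 32.4% of all genes. With MS023, 13 rose and 12 fell (median 0.1), beside 25.1% and 25.9% of all genes. The NR4A orphan nuclear receptors fell with GSK591 and rose with MS023. NR4A1 stood at 53.8, 45.9 and 47.5 CPM in DMSO, 17.3, 14.2 and 15.6 in GSK591, and 66.6, 79 and 76.8 in MS023, with no overlap. Its log2 changes were -1.65 ± 0.08 (adjusted p = 2.64e-10) and 0.6 ± 0.07 (adjusted p = 1.06e-05), those of NR4A2 -1.84 ± 0.08 and 0.7 ± 0.07. NR4A3, named after its values were seen, changed by -0.82 ± 0.14 and 0.43 ± 0.13. GADD45B, a growth arrest gene, also fell with GSK591 (-1.35 ± 0.06).

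Among genes of this list with a mean of at least 1 CPM, the increases with GSK591 were led by the antiproliferative gene BTG2 (1.51 ± 0.07) and the polo-like kinases PLK2 (1.45 ± 0.04) and PLK3 (0.88 ± 0.08), which are also known as p53 targets. With MS023, CTGF, a matrix-associated growth factor, rose (1.26 ± 0.07), as did KLF2 (0.75 ± 0.11, not in FPKM without a filter, adjusted p = 0.104). The kinase SGK1 (-1.3 ± 0.04), the cytokine inhibitor SOCS3 (-0.94 ± 0.05) and ID1 (-0.78 ± 0.05) fell with MS023. In GSK591, ID1 (182 CPM, beside 312 in DMSO) and SGK1 (46.9 beside 77.3) were also lower, without overlap. CTGF was also higher in GSK591 (30.2 beside 21.6 CPM, no overlap). SOCS3 stood at 33.9 CPM in GSK591 beside 33.2 in DMSO, and KLF2 was lower there (4.83 beside 9.38). Between the inhibitors, 15 genes of the list were higher and 14 lower in MS023, beside 33.6% and 31.7% of all genes. NR4A2 (2.54 ± 0.08), NR4A1 (2.24 ± 0.08) and GADD45B (1.77 ± 0.06) were highest by change, and PLK2 (-1.88 ± 0.04), BTG2 (-1.58 ± 0.08) and PLK3 (-1.02 ± 0.08) lowest.

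Upstream of these genes lie the MAP kinase cascades. Of 21 RAS, RAF, MAP kinase and RSK genes, 4 rose and 13 fell with GSK591 (median log2 -0.2), beside 30.1% and 32.4% of all genes. Among them were HRAS (0.49 ± 0.05) and MAPK8, which codes for the JUN kinase JNK1 (-0.45 ± 0.05). With MS023, 6 rose and 6 fell (median -0.01), beside 25.1% and 25.9% of all genes. Among these were RPS6KA1 (0.49 ± 0.06) and MAP2K6 (-0.63 ± 0.05). RPS6KA3, a kinase of the RSK family, rose by 0.33 ± 0.03 with MS023 and differed between inhibitors by 0.69 ± 0.03. Of 6 genes of SRF and its cofactors, 2 rose and 3 fell with GSK591, and 2 fell with MS023, beside the same shares of all genes. ELK4 fell by most with GSK591 (-0.52 ± 0.04). MKL1 rose with GSK591 (0.15 ± 0.05) in counts but stood at -0.04 in FPKM. The median of all genes in FPKM with GSK591 was -0.1 or -0.12 with the filter, by pseudocount, and 0.0 without it. MKL2 fell with both inhibitors (-0.42 ± 0.04 and -0.32 ± 0.04), calls that ended in FPKM (adjusted p up to 0.391 and 0.431). The other MS023 call, ELK3 (-0.09 ± 0.03), ended without any 1 DMSO replicate, among other settings.

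Phosphatases and other inhibitors of MAP kinase signalling numbered 17. With GSK591, 8 rose and 3 fell (median log2 0.12), beside 30.1% and 32.4% of all genes. With MS023, 10 rose and 4 fell (median 0.28), beside 25.1% and 25.9% of all genes. DUSP1, itself an immediate-early gene, whose product removes phosphate from JNK and p38, moved in opposite directions. It had 87.7, 78.9 and 80.1 CPM in DMSO, 157, 155 and 151 in GSK591, and 42.5, 43 and 47.1 in MS023. The log2 change was 0.91 ± 0.05 with GSK591 (adjusted p = 3.83e-10) and -0.89 ± 0.05 with MS023 (adjusted p = 1.22e-09), and no groups overlapped. DUSP9 rose with MS023 (1.23 ± 0.09) and was lower with GSK591 (-0.57 ± 0.11), the latter call ending in FPKM with a pseudocount of 1 (adjusted p = 0.0528). DUSP5 fell with MS023 (-0.53 ± 0.04). DUSP8 rose with both, by 0.88 ± 0.17 and 1.08 ± 0.17, the GSK591 call ending in FPKM with no filter (adjusted p = 0.0763).

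Of the genes listed here as AP-1 targets and tested, most were higher with GSK591 and most lower with MS023. Of 28 listed, 24 were tested. With GSK591, 16 rose and 3 fell (median log2 0.45, beside 0.01 in all genes), beside 30.1% and 32.4% of all genes. With MS023, 3 rose and 14 fell (median -0.23, beside 0.0), beside 25.1% and 25.9% of all genes. Between the inhibitors, 2 were higher and 19 lower in MS023 (median -0.69), beside 33.6% and 31.7% of all genes. Many of these genes also answer to other factors, and the list was not tested as a set. It was chosen with earlier results of these data known, so the counts describe the listed genes only. The matrix metalloproteinases MMP1, MMP3, MMP10 and MMP13 were below the filter, with 1, 2, 12 and 1 counts in DMSO.

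PLAU, which codes for the urokinase plasminogen activator, stood at 42.9, 45.1 and 42.4 CPM in DMSO, 97.3, 103 and 107 in GSK591, and 10.8, 10.5 and 10.6 in MS023. It fell 4.09-fold with MS023 (log2 -2.03 ± 0.05, adjusted p = 2.34e-13) and was 9.65-fold lower in MS023 than in GSK591 (log2 -3.27 ± 0.05). IL8, a chemokine, fell with MS023 (-1.36 ± 0.15), from 3.44 ± 0.25 to 1.33 ± 0.262 CPM. In GSK591 IL8 stood higher than in DMSO, at 6.78 ± 0.755 CPM, without overlap. The EGFR ligand HBEGF rose with both, by 1.38 ± 0.15 and 0.61 ± 0.16, the latter call ending in FPKM with a pseudocount of 1 (adjusted p = 0.0554). AREG, another EGFR ligand, fell with GSK591 (-0.55 ± 0.11).

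**Figure D4:**
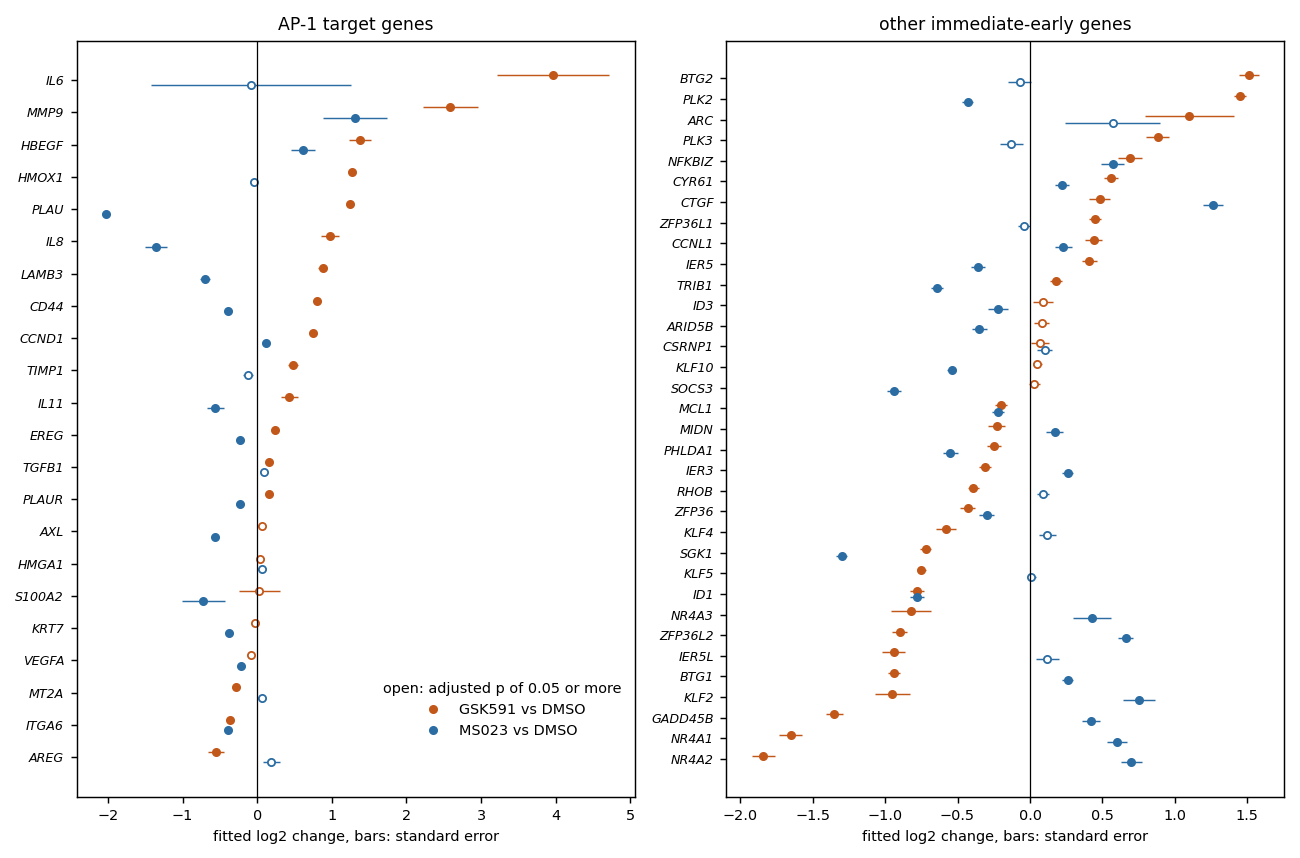
Fitted log2 change (x axis) with its standard error for tested genes (y axis) of the AP-1 target list (left) and of the other immediate-early genes (right), with GSK591 and with MS023, both against the same DMSO libraries. Filled points passed the test at an adjusted p of 0.05. On the left PLAU lies at -2.03 with MS023 and 1.24 with GSK591, and on the right NR4A1 lies at 0.6 and -1.65.

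EGR1 has its own corepressors and targets. Both corepressors, NAB1 (-0.48 ± 0.04) and NAB2 (-0.49 ± 0.06), fell with GSK591. With MS023, NAB1 changed by -0.18 ± 0.04 and NAB2 by -0.19 ± 0.06, and the call of NAB2 ended without DMSO replicate 2 (adjusted p = 0.0808) or 3 (0.0581) or MS023 replicate 1 (0.0726). Of the 9 genes of the list, 4 rose and 2 fell with each inhibitor. Of all genes, 30.1% rose and 32.4% fell with GSK591, and 25.1% and 25.9% with MS023. PDGFB rose by 1.59 ± 0.17 and 1.33 ± 0.17, and GDF15, a stress cytokine that is also a p53 target, by 1.4 ± 0.06 and 1.13 ± 0.06. PDGFB was low, with 135 counts over the DMSO libraries, 393 in GSK591 and 357 in MS023.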

How the data were processed

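Counts were deposited by the authors as whole-number counts per gene, not normalized, and FPKM in tables laid out as Cufflinks gene tables, per the file headers. The submitters' processing notes name cutadapt, STAR, featureCounts and DESeq2 with hg19; for versions, annotation, strand setting and filters the sources used here give nothing. Positions are hg19, from the FPKM tables.

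The tests on counts used edgeR 4.0.16 under R 4.3.3. Genes kept by filterByExpr (minimum count 10, minimum total 15) numbered 18292. Libraries were TMM-scaled, and 1 quasi-likelihood model with group as its term was fitted to all 9 libraries. P-values are two-sided and Benjamini-Hochberg adjusted over all genes, with a threshold of 0.05. Standard errors are the log2 change over the square root of F. CPM uses TMM-scaled library sizes, except for markers and mitochondrial rRNA, which use total counts. FPKM were tested with limma 3.58.1 on log2(FPKM + 1) or log2(FPKM + 0.1), genes having FPKM of at least 1 in 3 libraries. Reads are not independent molecules. The code was tested on simulated counts.

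Members, lists and tests were chosen with earlier results of these data known. Named genes are all members and, per list, comparison and direction, up to 3 called genes with the largest log2 change, a mean of at least 1 CPM and no overlap, of which some are not described; the 2 nearest genes were added for members changed at least 2-fold. Motifs and AU-rich elements were searched on RefSeq promoters and GENCODE 29 transcripts (GRCh38), and AU-rich elements only on the transcribed strand. Symbols came from the FPKM tables for 48523 of 51796 identifiers. Alternatives were other scalings and filters, a replicate block, leaving out each library, only the 6 libraries compared, a threshold of 0.01, DESeq2 1.42.0 and FPKM. Leaving out DMSO replicate 1 and GSK591 replicate 3 together was chosen after seeing the data. Some genes of the lists are counted but not reported here by name, and are left out of the plot of list genes.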

Additional observations from a re-analysis of the deposited data

How the results depend on the processing

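Of 20 called changes of members, 18 kept direction and call in all alternatives run, a threshold of 0.01 included; the exceptions were KLF6 with GSK591 and EGR1 with MS023 (adjusted p = 0.0152 at that threshold). FOSB turned sign, uncalled, to log2 -0.02 with GSK591 when DMSO replicate 1 and GSK591 replicate 3 were left out, and to 0.09 with MS023 without MS023 replicate 1 (range without 1 library -0.29 to 0.09). Leaving out 1 library gave 8 to 9 members called with GSK591, 5 to 8 with MS023 and 6 to 7 between the inhibitors. SRF and cofactor calls with GSK591 went from 5 to 3 at a threshold of 0.01 and in FPKM with either pseudocount, and to 2 in FPKM with no filter. With MS023 they went from 2 to 1 at 0.01, with no filter on low counts, with the replicate block, with DESeq2 and without both doubted libraries, to between 1 and 2 without 1 library, and to 0 in FPKM with or without the filter. Between the inhibitors they went from 5 to 3 in the 3 FPKM settings. Among feedback inhibitors with GSK591 11 calls became 7, and among dimer partners with MS023 9 became 5, both in FPKM with no filter. Dimer partners called between the inhibitors went from 17 to 11 in FPKM with the filter, which left MAF and BATF2 untested. Genes called overall with MS023 were 9327 of 18292 tested in counts. In FPKM they were 5617 (pseudocount 1) and 5614 (0.1) of 12935 tested, and 5434 of 27023 with no filter. MKL1 with GSK591 turned to -0.04 and MKL2 between inhibitors to -0.02 in the FPKM settings. The median of all genes with GSK591 lay at log2 -0.12 in FPKM with a pseudocount of 0.1, against 0.01 in counts, and 33.8% of calls were higher against 48.2%; between the inhibitors it lay at 0.11 and 63.8% against 51.5%. The causes were not tested.

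Replicate numbers are shared between groups, but deviations of same-numbered libraries from their group means correlated across genes with r from -0.43 to 0.258, so the numbers were not taken to pair samples. With the replicate block 8 members were called with GSK591, 6 with MS023 and 6 between the inhibitors. Depth limits FOSB, EGR1 and the genes with a few counts named above.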

Other observations

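Within groups, JUND and IER2 spread across libraries more than FOSL2, relative to their levels. The library with the highest JUND level among the controls, DMSO replicate 1 (104 CPM), also had the highest IER2 (59.3) and JUNB (70.3). In MS023, replicate 1 was lowest in JUND (127 CPM), IER2 (55.2) and JUNB (46.6). In GSK591, replicate 2 was lowest in JUND (51.9 CPM), IER2 (32.8) and JUNB (57.2). The rest of the order was not shared. Among the controls, JUND was lowest in replicate 2 (81.5 CPM), and IER2 (51.4) and JUNB (61.4) in replicate 3. FOSL2 did not share these extremes, with 99.5 CPM in MS023 replicate 1 and 294 CPM in GSK591 replicate 2, the highest of their groups. JUN shared the extreme library in DMSO (16.3 CPM in replicate 1) and MS023 (15.6 CPM in replicate 1). In GSK591, replicate 2 was highest in JUN (47.1 CPM).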
